A study of Mus musculus with 3 samples.

Results

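Shared MYC sites at 1 gene end are MYC peaks of POH1-Flag cells that overlapped a MYC peak of vector cells by at least 1 bp, overlapped no Flag peak, and had their summit within 1 kb of the start or end of exactly 1 protein-coding gene of the RefSeq annotation of GRCm38. Of the 22647 MYC peaks called in POH1-Flag cells, 22241 lay on chromosomes 1 to 19 or X, 10010 of those overlapped a vector peak, and 9190 of these overlapped no Flag peak. The members were the 4184 of them at 1 gene end, which is 18.5% of the whole list. A further 1019 shared sites lay at the ends of 2 or more genes and 3987 lay at no gene end. The peak lists of both MYC libraries chose the members, so the MYC levels at members are a description and were not tested.

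The study profiled Pan02, a mouse pancreatic ductal adenocarcinoma line, by CUT&Tag, in which an antibody tethers a transposase that cuts and tags the DNA beside its target. The 3 libraries were Flag in cells stably expressing POH1-Flag, MYC in the same POH1-Flag cells, and MYC in cells carrying vector. Each group has 1 library, so no difference has a replicate check, and nothing separates the effect of POH1-Flag from that of a single library. The promoter of the transgene, the number of clones and the level of MYC protein are not stated by the labels.

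MYC binds DNA as a heterodimer with MAX at E-boxes, whose canonical letters are CACGTG, and in proliferating cells it occupies many active, CpG-rich promoters, among them those for ribosome synthesis, translation, nucleotide supply and metabolism. MXD proteins and MNT pair with MAX in its place and repress. POH1 is another name for PSMD14, the deubiquitinase of the proteasome lid, and MYC is a short-lived protein that is ubiquitinated and degraded by the proteasome. The study asked how POH1 bears on MYC in these cells.

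The promoters of 4 members with a canonical E-box are shown so that the motif can be set beside the summits described later. They were taken by a fixed rule, by MYC pileup in POH1-Flag cells, among genes that carried CACGTG in the 250 bases before the annotated start. Not every strong member with the motif is shown. Eif5a, with 78 reads in POH1-Flag cells, and Xpot, with 67 reads, carried CACGTG between 250 bases before and 50 bases after a start. Each is given 5′ to 3′ in the direction of the gene, from RefSeq on build GRCm38.p6, and ends at the base before the start. Capitals mark the E-box. The stretches are chr10:79854182-79854431 (plus strand) for Ptbp1, a splicing repressor; chr7:44986421-44986670 (minus strand) for Prmt1, an arginine methyltransferase; chr5:34187711-34187960 (minus strand) for Mxd4, a MAX partner and repressor; and chr3:41083047-41083296 (minus strand) for Pgrmc2, a haem-binding membrane protein.
Ptbp1: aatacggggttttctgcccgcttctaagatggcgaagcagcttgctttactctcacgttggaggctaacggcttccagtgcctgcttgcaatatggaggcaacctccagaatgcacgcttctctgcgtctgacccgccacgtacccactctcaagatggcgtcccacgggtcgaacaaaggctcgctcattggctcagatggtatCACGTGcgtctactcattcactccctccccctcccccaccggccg
Prmt1: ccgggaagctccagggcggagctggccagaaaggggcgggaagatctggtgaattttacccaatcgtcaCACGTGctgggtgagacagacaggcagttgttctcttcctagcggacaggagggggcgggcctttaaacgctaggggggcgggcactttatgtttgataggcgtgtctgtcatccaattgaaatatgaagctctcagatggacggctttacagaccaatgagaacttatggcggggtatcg
Mxd4: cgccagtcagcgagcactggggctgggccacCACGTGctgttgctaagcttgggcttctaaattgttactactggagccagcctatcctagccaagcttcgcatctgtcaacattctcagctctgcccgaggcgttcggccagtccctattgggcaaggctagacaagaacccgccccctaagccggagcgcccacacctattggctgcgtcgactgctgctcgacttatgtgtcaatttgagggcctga
Pgrmc2: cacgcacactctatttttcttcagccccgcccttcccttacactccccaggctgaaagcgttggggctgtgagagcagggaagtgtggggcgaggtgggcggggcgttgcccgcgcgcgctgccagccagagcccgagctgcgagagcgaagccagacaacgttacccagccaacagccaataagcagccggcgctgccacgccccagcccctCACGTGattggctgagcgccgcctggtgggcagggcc

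The E-box was centred at -42 bp from the start at Ptbp1, and the MYC summit lay at -15 bp in POH1-Flag cells and at 85 bp in vector cells. At Prmt1 the E-box was at -178 bp, downstream of the summit at -192 bp in POH1-Flag cells and of that at -293 bp in vector cells. At Mxd4 it was at -216 bp, with the summit at -230 bp in POH1-Flag cells and at -53 bp in vector cells. The Pgrmc2 E-box at -34 bp lay farther from both summits, which were at -185 bp in POH1-Flag cells and -256 bp in vector cells. At these 4 promoters the summit of POH1-Flag cells was the nearer one to the E-box, in 1 library of each kind. They were chosen by the pileup and summit position of POH1-Flag cells, with no condition on the vector summit. They therefore cannot show a difference between the libraries.

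Strong MYC sites were also found at promoters without the motif in this window. The next 2 promoters, chosen by the same order among genes without the E-box CACGTG and without its near spelling CACGCG, the spelling CATGTG or the spelling CATGCG on either strand, belong to Ncl, which encodes the nucleolar protein nucleolin, and Cct2, a subunit of the TRiC chaperonin. They lie at chr1:86359456-86359705 and chr10:117063853-117064102, both on the minus strand, and carry no capitals because none of those spellings is in them.
Ncl: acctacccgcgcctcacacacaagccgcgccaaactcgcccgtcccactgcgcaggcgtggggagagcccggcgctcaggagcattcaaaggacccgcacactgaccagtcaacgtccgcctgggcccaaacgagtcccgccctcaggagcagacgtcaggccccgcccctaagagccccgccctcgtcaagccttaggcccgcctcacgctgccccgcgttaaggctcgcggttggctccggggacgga
Cct2: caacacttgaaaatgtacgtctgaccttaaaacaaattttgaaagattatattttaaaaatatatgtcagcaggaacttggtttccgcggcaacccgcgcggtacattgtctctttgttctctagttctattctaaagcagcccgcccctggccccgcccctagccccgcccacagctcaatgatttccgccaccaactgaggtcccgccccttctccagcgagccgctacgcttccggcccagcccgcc

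Ncl had a summit pileup, the number of reads that cover the peak's highest base, of 80 reads in POH1-Flag cells and 47 reads in vector cells. Cct2 had 79 reads in POH1-Flag cells and 47 reads in vector cells. Both exceeded the 4 promoters with an E-box shown above. Those had 70 reads (Ptbp1), 65 reads (Prmt1), 59 reads (Mxd4) and 58 reads (Pgrmc2) in POH1-Flag cells, against 42, 38, 26 and 36 reads in vector cells. Eif5a, which also carried CACGTG but is not shown, came close to Ncl and Cct2, with 78 reads in POH1-Flag cells and 39 reads in vector cells. Over all member promoters those with the motif had the higher median. The median pileup in POH1-Flag cells was 28 reads with CACGTG and 24 reads without it. The absence of a match says only that these letters are not in this window.

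MYC pileups at the members were modest in both libraries and higher in POH1-Flag cells at nearly every site. The median summit pileup was 24 reads in POH1-Flag cells (quartiles 19 and 32, range 8 to 102) and 15 reads in vector cells (quartiles 12 and 20, range 6 to 71). After division by the relative depth of the POH1-Flag library, 1.06, taken from the genome-wide background per kb with the smallest peak width as the fragment length (202 bp in POH1-Flag cells and 219 bp in vector cells), the median log2 ratio of POH1-Flag over vector pileup was 0.59, or 1.51-fold, with quartiles of 0.36 and 0.82. Without that length the background was 0.826 reads in POH1-Flag cells and 0.845 reads in vector cells, which puts the POH1-Flag library slightly below the vector library and the median log2 ratio at 0.71. Summed over members, 110997 reads in POH1-Flag cells and 70003 reads in vector cells gave a ratio of 1.5 after scaling (exact conditional Poisson 95% interval 1.48 to 1.51, which covers counting error only).

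The ratio was above 1 at 3991 members, which is 95.4%, where 91.4% of all shared sites without a Flag peak had such a ratio. It was at least 1.5 at 2105 members (50.3%, against 45.9% of those shared sites) and at least 2 at 497 members (11.9%, against 10.7%). At 8 members (0.191%) the vector pileup was the higher one by at least 1.5 times, where the share over all shared sites was 1.07%. The shares with a higher POH1-Flag pileup therefore lay near those of shared sites in general, which include the members. The share with the vector pileup higher by 1.5 times was lower at members. The rule itself asked for a peak in both libraries.

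The size of this difference depended on what the pileup was set against. The local background of a peak, which the peak caller takes from a window of 10 kb around the summit, was also higher at the members. That window held a median of 136 reads in POH1-Flag cells and 81 reads in vector cells, against genome-wide levels of 40.9 and 38.6 reads for the same length. Scaled in the same way, the window count was higher in POH1-Flag cells at 4145 members (99.1%), with a median ratio of 1.57. The other shared sites showed the same. The window count was higher at 99.8% of sites at the ends of 2 or more genes, with a median ratio of 1.61. At no gene end it was higher at 92.1% of sites, with a median ratio of 1.51. At members, the window reads that did not cover the summit had medians of 111 in POH1-Flag cells and 66 in vector cells. Their median ratio was 1.58, though they still include reads from the flanks of the peak. With each pileup divided by its own local background, the median log2 ratio over members was 0.06 and 57% of members were above 1. Of the 98 genes covered by the naming rule, 40 had a log2 ratio below 0 on that scale, against 11 after depth scaling. Reads in the neighbourhood of the members were thus higher in the POH1-Flag library by about the same factor as the summits, and the part that these wider reads play in the pileup ratio was not tested.

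**Figure D1:**
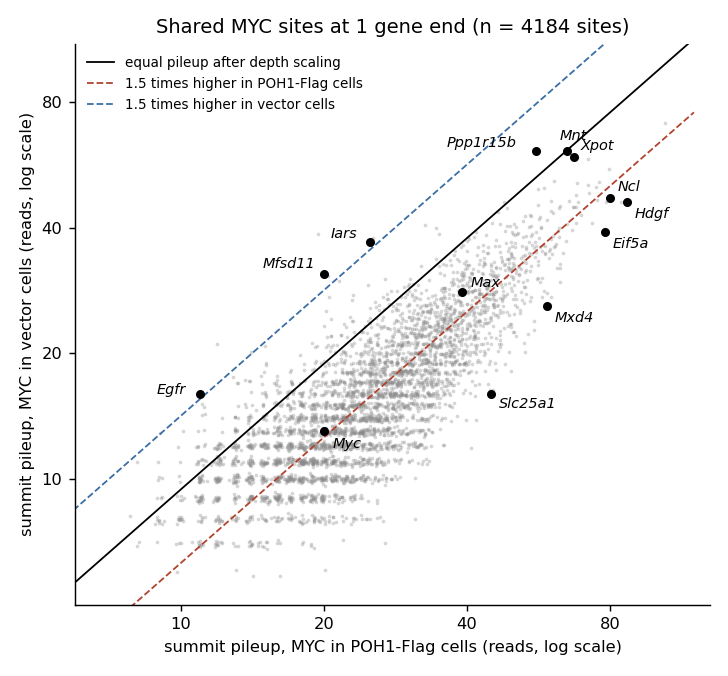
Summit pileup at each of the 4184 members in POH1-Flag cells (x axis, reads, log scale) against vector cells (y axis, reads, log scale), with small offsets so that whole reads do not overprint; the solid line marks equal pileup after depth scaling and the dashed lines a ratio of 1.5 in either direction. Most points lie below the solid line, with a median log2 ratio of 0.59, and labelled genes include Slc25a1 among the highest ratios and Mfsd11, Iars and Egfr among the lowest.

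Shared sites with no gene end within 1 kb, which can lie inside genes, were set beside the members. Sites at no gene end had medians of 22 reads in POH1-Flag cells and 14 reads in vector cells, a median log2 ratio of 0.47, and 88 sites (2.21%) lower in POH1-Flag cells by 1.5 times or more. Sites at the ends of 2 or more genes had medians of 27 reads in POH1-Flag cells and 16 reads in vector cells and a median log2 ratio of 0.62, close to the members. Because a group has 1 library, these differences between site classes were not tested.

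Member peaks were also broader in POH1-Flag cells. The median width was 673 bp in POH1-Flag cells and 470 bp in vector cells, and 3550 members (84.9%) were wider in POH1-Flag cells. Over all shared sites without a Flag peak that share was 82.8%, so it was not particular to members. The summits of the 2 libraries lay a median of 70 bp apart, and at 62.8% of members they were within 100 bp of each other. Over all those shared sites the values were 72 bp and 61.2%.

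Members with a low vector pileup had the larger ratios. In bins of the vector pileup, chosen after the data were seen, the median log2 ratio was 0.77 for the 698 members with up to 10 reads in vector cells, 0.65 for 11 to 13 reads, 0.58 for 14 to 17 reads, 0.55 for 18 to 22 reads, 0.47 for 23 to 30 reads and 0.41 for the 231 members with over 30 reads. The vector pileup is itself the denominator of the ratio, and a vector site had to be called a peak. In bins of the summed pileup of both libraries, which is in neither side alone, the order was not monotonic, with medians of 0.50, 0.63, 0.64, 0.64 and 0.55 from the lowest to the highest bin. In each vector bin the members lay above shared sites at no gene end, whose medians ran from 0.55 in the lowest bin to 0.28 in the highest.

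**Figure D2:**
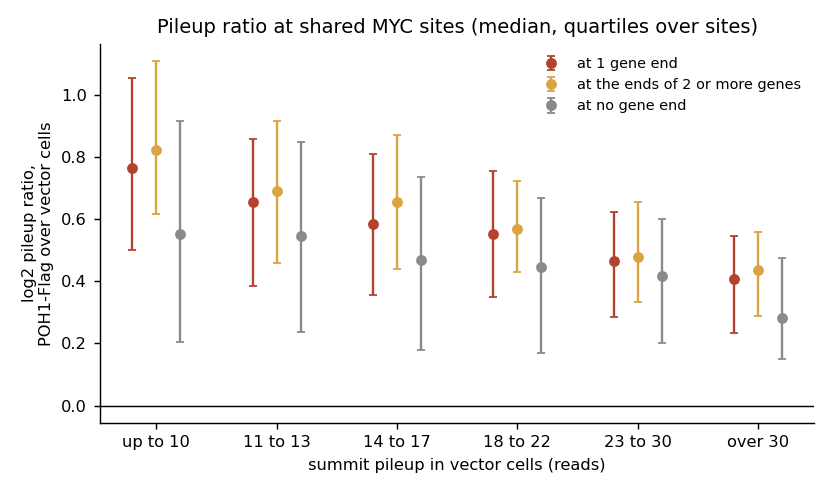
Median log2 ratio of POH1-Flag over vector pileup (y axis, points, with bars for the quartiles over sites) in bins of the vector summit pileup (x axis, reads) for members, shared sites at the ends of 2 or more genes, and shared sites at no gene end. Members have medians between 0.77 in the lowest bin and 0.41 in the highest and lie above sites at no gene end in each bin.

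The strongest MYC peaks of the line were mostly not members. Of the 100 POH1-Flag peaks with the highest pileup, 1 was a member, and 78 overlapped a Flag peak, which the rule excludes. The members made up 161 of the top 500 (32.2%) and 389 of the top 1000 peaks (38.9%) in POH1-Flag cells. Both shares were above the 18.5% that members make up of the whole list. Their partners made up 0 of the top 100, 127 of the top 500 and 340 of the top 1000 peaks in vector cells. The single strongest member, with 102 reads in POH1-Flag cells and 71 reads in vector cells, lay near the end of the predicted gene Gm40364 and had a Flag summit 5150 bp away; it was picked out after its values were seen.

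Few members had a Flag peak near them, beyond the overlap that the rule excludes. A Flag summit lay within 10 kb of 37 members (0.884%), against 80 of the 3987 shared sites at no gene end (2.01%). The nearest were 862 bp away at Anp32e, which encodes a histone H2A.Z chaperone, 966 bp away at Tmem267 and 1308 bp away at Etv4, an ETS factor. A total of 23 peaks met every condition for membership except that they overlapped a Flag peak.

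Nearly all members lay at the start of their gene and not at its end, which the rule did not ask for. The strand was taken for the 3424 members whose gene has a RefSeq promoter sequence, and 3344 of them (97.7%, Wilson 95% interval 97.1 to 98.1) were closer to the start. At the 3276 sites whose POH1-Flag summit was within 1 kb of an annotated start, the median summit position was -34 bp in POH1-Flag cells and -13 bp in vector cells. Summits lay upstream of the start at 55.5% of these sites in POH1-Flag cells and 52.1% in vector cells, and within 250 bp of it at 83.2% in POH1-Flag cells and 80.3% in vector cells.

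The summits formed a pair of groups, one on each side of the start. The 100 bp from -200 to -100 held 715 sites (21.8%) in POH1-Flag cells and 606 (18.5%) in vector cells. The next 100 bp, from -100 to the start, held fewer, 547 (16.7%) in POH1-Flag cells and 505 (15.4%) in vector cells. The first 100 bp of the gene again held more, 714 (21.8%) in POH1-Flag cells and 727 (22.2%) in vector cells. The same dip was present in both libraries, and the upstream group held more summits in POH1-Flag cells than in vector cells.

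**Figure D3:**
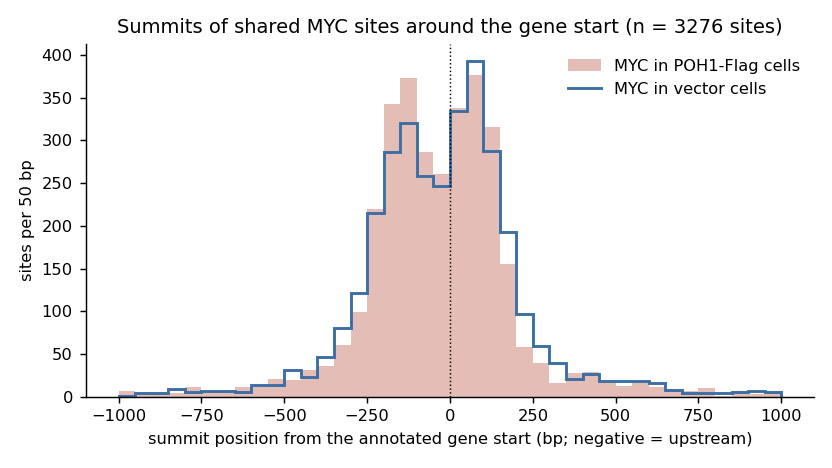
Number of member summits per 50 bp (y axis) by position from the annotated start of the gene (x axis, bp, negative upstream) at 3276 sites, in POH1-Flag cells (filled) and vector cells (outline). Both libraries show a group of summits on each side of the start, and medians lie at -34 bp in POH1-Flag cells and -13 bp in vector cells.

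The pileup ratio varied little with position close to the start. In bins of the POH1-Flag summit position, chosen after the data were seen, the median log2 ratio was 0.64 (660 sites) between -150 and -50 bp and 0.61 (688 sites) between 50 and 150 bp. It was lower farther out, at 0.50 upstream of -400 bp (141 sites) and 0.42 from 250 to 1000 bp into the gene (214 sites). These differences are smaller than the spread between quartiles within each of these bins.

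The 80 members at the end of a gene had a median of 25 reads in POH1-Flag cells and 16.5 reads in vector cells and a median log2 ratio of 0.50. The ratio was above 1 at 71 of them and at least 2 at 1 of them. Of these sites, 11 were also within 1 kb of an annotated start of the same gene and 15 lay in genes shorter than 2 kb, so the end is not always distinct from the start. Examples, picked out after their values were seen, were Mid1, which encodes a microtubule-associated ubiquitin ligase, with 72 reads in POH1-Flag cells and 49 reads in vector cells, and Junb, an AP-1 subunit, with 42 reads in POH1-Flag cells and 33 reads in vector cells. The site at the end of Bax, a pro-apoptotic p53 target, had 38 reads in POH1-Flag cells and 19 reads in vector cells. The compact histone gene H4c11 had 38 reads in POH1-Flag cells and 22 reads in vector cells, and both of its ends are close together.

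The members covered 4104 genes, or 19% of the 21631 protein-coding genes on the 20 chromosomes used. A second member site was present at 80 genes, among them Kpnb1, the importin beta of nuclear import, with 65 and 30 reads in POH1-Flag cells, Nfe2l2, the antioxidant factor NRF2, with 53 and 30 reads, and the glycolytic gene Gapdh with 43 and 41 reads. The share of genes with a member ran from 13.8% on chromosome 7 to 23.8% on chromosome 19 among autosomes. On chromosome X it was 4.35%, or 42 of 966 genes. A gene that is not protein-coding had an end within 1 kb of 733 members (17.5%), and 609 of the members (14.6%) had an lncRNA there, so the protein-coding gene is not the sole candidate at these sites.

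Promoters at members were rich in CpG. The median GC content over the 300 bases from 250 before to 50 after the start was 63.3% for the 3231 promoters with a member site and 56.7% for all 21045 promoters. The observed over expected CpG ratio had medians of 0.832 at members and 0.574 over all promoters.

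The canonical E-box CACGTG, searched on both strands in those 300 bases, was present in 419 member promoters (12.97%, Wilson 95% interval 11.9 to 14.2), against 7.91% of all promoters. Of the other spellings, CACGCG was present in 22.5% of member promoters and 12.2% of all promoters, and CATGCG in 12.8% of member promoters and 7.65% of all. CATGTG, which holds no CpG, went the other way, with 7.15% of member promoters and 11.6% of all. The permuted letters CGTGCA, which hold 1 CpG as the E-box does, were present in 8.60% of member promoters and 6.78% of all promoters.

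Part of the E-box difference moved with CpG content. Among promoters with a CpG ratio of at least 0.9, bins chosen after the data were seen, CACGTG was in 14.8% of member promoters and 12.9% of all. From 0.7 to 0.9 it was in 12.6% of member promoters and 10.7% of all, and from 0.5 to 0.7 in 11.5% of member promoters and 9.67% of all. In the sparser bins it was in 8% of member promoters and 6.84% of all from 0.3 to 0.5, and in 6 of the 43 member promoters (13.95%) and 2.79% of all below 0.3. The members had the higher E-box share in each of the 5 bins. The permuted letters were at 9.41% of member promoters and 10.6% of all in the highest bin, 8.48% of member promoters and 9.12% of all in the next, 8.64% of member promoters and 8.25% of all in the middle bin, 6% of member promoters and 6.49% of all from 0.3 to 0.5, and 0 of the 43 member promoters and 2.44% of all in the lowest.

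Other promoter motifs also differed in share between member promoters and all promoters. The GC box GGGCGG, bound by SP and KLF factors, was in 76.0% of member promoters and 46.7% of all promoters. The contrast was smaller at matched CpG content. With a CpG ratio of at least 0.9 the GC box was in 82.7% of member promoters and 77.8% of all, and from 0.7 to 0.9 in 78.5% of member promoters and 74.7% of all. In the 3 lower bins it was in 69.1%, 46% and 27.9% of member promoters, against 61.7%, 31.1% and 9.08% of all. The shares of the motifs that follow were not split by CpG content. The ETS core CCGGAA was in 30.6% of member promoters and 18.9% of all, the CCAAT box of NF-Y in 42.3% of member promoters and 38.5% of all, and the CRE of CREB and ATF factors in 4.09% of member promoters and 2.26% of all. The NRF1 motif, whose letters include CATGCG, was in 2.57% of member promoters and 1.34% of all. The TATA box TATAAA was in 5.70% of member promoters and 12.7% of all, and the AP-1 site TGACTCA in 97 member promoters, fewer for their number than the 4.69% of all. A match is a description of the letters and not of a bound site.

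The E-box share climbed with MYC pileup inside the members. With the member promoters split into 5 equal groups by POH1-Flag pileup, 9.29%, 9.91%, 12.7%, 14.6% and 18.4% carried CACGTG from the lowest to the highest group. In 5 groups by vector pileup the shares were 7.74%, 11.3%, 14.7%, 13.2% and 17.9%. The permuted letters stayed between 7.28% and 10.4% across the POH1-Flag groups and between 6.50% and 10.1% across the vector groups. Along the POH1-Flag groups the median GC content was 61.7% in the lowest and 65.3% in the highest, and the median summit lay at 20.5 bp in the lowest and at -125 bp in the highest, inside the bases searched. The part of these shifts in the E-box trend was not tested.

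An E-box in the promoter did not go with a larger POH1-Flag to vector ratio. The median log2 ratio was 0.61 at member promoters with CACGTG and 0.59 at those without. The median pileup was 28 reads in POH1-Flag cells and 16 reads in vector cells with the motif, and 24 reads in POH1-Flag cells and 15 reads in vector cells without it. The 478 E-boxes in member promoters were centred at a median of -75 bp, near the -70 bp of the 1854 E-boxes in all promoters. Of the 478, 220 (46.0%) were within 100 bp of the POH1-Flag summit. That share has no comparison here, and the bases searched and most summits both lie close to the start.

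**Figure D4:**
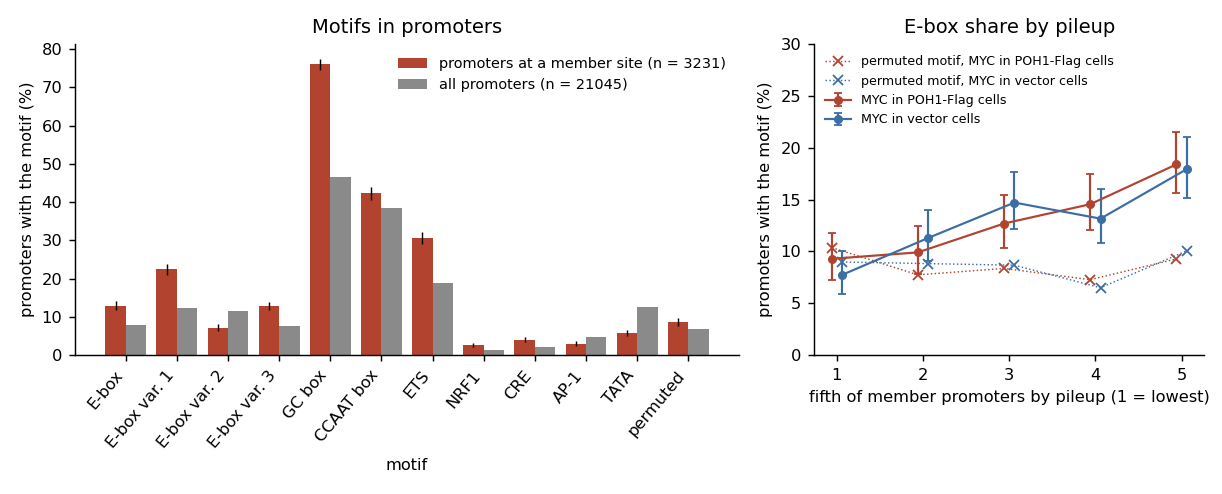
Left, share of promoters with each motif (y axis, %) at members (red, bars with Wilson 95% intervals) and over all promoters (grey), where variant 1 is CACGCG, variant 2 is CATGTG and variant 3 is CATGCG. Right, share of member promoters with CACGTG (circles with Wilson 95% intervals) or its permuted letters (crosses) in 5 equal groups by summit pileup; the E-box share is 9.29% in the lowest and 18.4% in the highest POH1-Flag group.

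The 8 named genes with the highest MYC pileup in POH1-Flag cells had 74 to 87 reads there and 39 to 55 reads in vector cells. Hdgf, a nuclear growth factor, led them with a summit at position 87906074 of chromosome 3, 87 reads in POH1-Flag cells and 46 reads in vector cells, a ratio of 1.79 (95% interval 1.24 to 2.61). Besides Ncl and Cct2, described above, Klf16, a zinc-finger repressor, had 80 reads in POH1-Flag cells and 55 reads in vector cells. Eif5a, the hypusinated translation factor, had 78 reads in POH1-Flag cells and 39 reads in vector cells. Ptma, which encodes prothymosin alpha and is a classical MYC target, had 75 reads in POH1-Flag cells and 50 reads in vector cells. Avpi1 had 77 reads in POH1-Flag cells and 47 reads in vector cells, and Tbl2 had 74 reads in POH1-Flag cells and 41 reads in vector cells.

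The 8 genes with the largest ratios had 41 to 52 reads in POH1-Flag cells and 16 to 20 reads in vector cells. Among the 2088 genes with at least 15 vector reads that the naming rule covers, the mitochondrial citrate carrier Slc25a1 had 45 reads in POH1-Flag cells and 16 reads in vector cells, a ratio of 2.65. Tpp2, a large serine peptidase that acts downstream of the proteasome, had the same 45 reads in POH1-Flag cells and 16 reads in vector cells. The fatty acid desaturase Fads2 had 42 reads in POH1-Flag cells and 16 reads in vector cells, a ratio of 2.48. The others were Fam193a, Hip1, Usp53, Zdhhc12 and Mnd1. These are the extremes of a ranking by ratio.

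At the other extreme the vector pileup was higher, but no gene stood clear of counting error. Mfsd11 had 20 reads in POH1-Flag cells and 31 reads in vector cells, a ratio of 0.609 (95% interval 0.329 to 1.10). Its peak was 338 bp wide in POH1-Flag cells and 1546 bp wide in vector cells, so the 2 pileups need not come from the same place. The isoleucyl-tRNA synthetase gene Iars had 25 reads in POH1-Flag cells and 37 reads in vector cells. The receptor tyrosine kinase gene Egfr had 11 reads in POH1-Flag cells and 16 reads in vector cells. The remaining 5, St3gal3, Tbc1d9b, Tor3a, Ccz1 and Vezf1, had 11 to 21 reads in POH1-Flag cells and 15 to 30 reads in vector cells, and the interval of each of the 8 genes holds 1.

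MYC sites stood at many genes of the MYC network itself. Of 31 network genes, 19 had a member site (61.3%, against the 19% of all genes), all 19 had a ratio above 1, and their median log2 ratio was 0.67. Over all member genes 3935 of 4104 (95.9%) had a ratio above 1, so a list in which every member gene is above 1 lies near that share. The promoter of Myc had 20 reads in POH1-Flag cells and 13 reads in vector cells, a ratio of 1.45 (95% interval 0.687 to 3.18), and that of its partner Max had 39 reads in POH1-Flag cells and 28 reads in vector cells. Among the antagonists, Mnt had 65 reads in POH1-Flag cells and 61 reads in vector cells, a log2 ratio of 0.01. Mxd4 had 59 reads in POH1-Flag cells and 26 reads in vector cells, a log2 ratio of 1.10, and Mxd1 and Mxd3, picked out after their values were seen, had 38 and 41 reads in POH1-Flag cells and 20 and 23 reads in vector cells. The genes of these MAX-binding antagonists of MYC thus spanned the list from its lowest ratio to near its highest. Promoters of 4 of the 15 network members with sequence carried CACGTG, at Bptf, Max, Mnt and Mxd4. Over all member promoters the share was 12.97%, and 15 promoters are too few to set against it. Ep400, a chromatin remodelling ATPase, had 57 reads in POH1-Flag cells and 37 reads in vector cells.

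The gene of POH1 itself, Psmd14, was not a member, as it had a MYC peak in POH1-Flag cells and none in vector cells. Of 49 proteasome genes 16 had a member site (32.7%, against 19% of all genes), and another 16 had at their end a POH1-Flag peak without a vector peak. The share of all genes with such a peak is not given here. Peaks of this kind were common, as only 10010 of the 22241 POH1-Flag MYC peaks on the chromosomes used overlapped a vector peak. All 16 member genes had a ratio above 1, near the 95.9% of all member genes, with a median log2 ratio of 0.59. Psme3, an activator of the proteasome, had 39 reads in POH1-Flag cells and 25 reads in vector cells. Adrm1, the ubiquitin receptor of the base, had 31 reads in POH1-Flag cells and 19 reads in vector cells, and the core subunit Psma5 had 29 reads in POH1-Flag cells and 14 reads in vector cells. Among 61 deubiquitinase genes, 25 had a member site with a median log2 ratio of 0.65, led by Usp36, which deubiquitinates MYC in the nucleolus, with 49 reads in POH1-Flag cells and 29 reads in vector cells. Usp22 had 49 reads in POH1-Flag cells and 32 reads in vector cells. Usp28, which is known to stabilise MYC, had 45 reads in POH1-Flag cells and 22 reads in vector cells.

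Translation and ribosome genes had member sites at 50% to 66% of each list, against 19% of all genes. The median ratio of each list was at or below the members' median, with single genes on both sides of it. A member site was present at 33 of 50 core MYC targets (66%), a list of textbook targets that overlaps several others, and the median log2 ratio was 0.49, or -0.01 with each pileup over its local background. For 46 of 78 ribosomal protein genes (59.0%) the median was 0.59, or -0.06 over local background, and its named genes were Rpl13a with 51 reads in POH1-Flag cells and 38 in vector cells and Rps19 with 47 reads in POH1-Flag cells and 26 in vector cells. The ribosome biogenesis list had 33 of 66 genes (50%) and a median of 0.49, with Nolc1, a nucleolar phosphoprotein, at 49 reads in POH1-Flag cells and 33 in vector cells and the snoRNP protein gene Nop56 at 43 reads in POH1-Flag cells and 27 in vector cells. Another 21 genes of that list had a shared site that also lay at the end of a neighbouring gene. Translation factors had 30 of 49 genes (61.2%) and a median of 0.58, with the scaffold gene Eif4g1 at 47 reads in POH1-Flag cells and 24 in vector cells.

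Genes of tRNA charging were the most uneven. Of 39 synthetase genes 18 had a member site (46.15%, against 19% of all genes), and 13 of the 18 had a ratio above 1. Log2 ratios ran from -0.65 at Iars to 1.14 at Dars, the aspartyl enzyme, with 28 reads in POH1-Flag cells and 12 reads in vector cells. The genes with the highest pileup were Nars2, with 38 reads in POH1-Flag cells and 24 in vector cells, and Tars, with 30 reads in POH1-Flag cells and 19 in vector cells, each with a ratio of 1.49. Genes below 1 besides Iars, picked out after their values were seen, were Gars with 13 reads in POH1-Flag cells and 17 in vector cells, Lars with 21 reads in POH1-Flag cells and 24 in vector cells, and Farsb and Nars with equal pileups in both libraries. Over all member genes the share above 1 was 95.9%.

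RNA polymerase genes had one of the highest medians. A member site was at 15 of 37 genes (40.5%, against 19% of all genes), all 15 had a ratio above 1, against 95.9% of all member genes, and the median log2 ratio was 0.83. Brf1, the TFIIIB subunit of RNA polymerase III initiation, had 47 reads in POH1-Flag cells and 21 reads in vector cells. Polr3d had 38 reads in POH1-Flag cells and 27 reads in vector cells, and Polr2a, the largest subunit of RNA polymerase II, had 37 reads in POH1-Flag cells and 23 reads in vector cells. Over local background the list's median was 0.26, also above the 0.06 of all members.

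Cell cycle and replication genes had a member at 31 of 68 genes (45.6%, against 19% of all genes), all with a ratio above 1, against 95.9% of all member genes, and a median log2 ratio of 0.75. Ccne2, a G1/S cyclin gene, had 56 reads in POH1-Flag cells and 36 reads in vector cells. The mitotic inhibitor kinase gene Wee1 had 50 reads in POH1-Flag cells and 26 reads in vector cells, and the E2F activator gene E2f3 had 44 reads in POH1-Flag cells and 21 reads in vector cells. Of the 24 promoters with sequence in this list, 2 (8.33%) carried CACGTG, against 12.97% of all member promoters and 7.91% of all promoters.

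Cholesterol and lipid synthesis genes had the highest median of the lists. Of 31 genes 20 had a member site (64.5%, against 19% of all genes), all 20 had a ratio above 1, against 95.9% of all member genes, and the median log2 ratio was 0.85, against 0.03 over local background, which is below the 0.06 of all members on that scale. Hsd17b7 of cholesterol synthesis had 41 reads in POH1-Flag cells and 17 reads in vector cells, Insig1, the sterol sensor that retains SCAP, had 52 reads in POH1-Flag cells and 27 reads in vector cells, and the fatty acid synthase gene Fasn had 57 reads in POH1-Flag cells and 40 reads in vector cells. Hmgcs1, Mvd, Msmo1 and Srebf2, picked out after their values were seen, had 25 to 37 reads in POH1-Flag cells and 11 to 17 reads in vector cells. The high ratios of this list came with higher local reads to about the same degree.

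Genes of the unfolded protein response and the ATF4 programme had the lowest median. A member site was at 24 of 35 genes (68.6%, against 19% of all genes), the largest share of any list. Of the 24, 19 had a ratio above 1, against 95.9% of all member genes. The list's median log2 ratio was 0.31, or -0.12 over local background. Ppp1r15b, the constitutive eIF2 alpha phosphatase subunit, had 56 reads in POH1-Flag cells and 61 reads in vector cells. Pdia4 and Calr, of folding in the endoplasmic reticulum, had 57 and 48 reads in POH1-Flag cells and 34 and 31 reads in vector cells. Atf4, Chac1, Asns, Trib3 and Dnajb9, picked out after their values were seen, had 33, 30, 23, 18 and 25 reads in POH1-Flag cells and 30, 30, 24, 19 and 25 reads in vector cells, so pileups at these stress targets were nearly equal. The list's median vector pileup was 23.5 reads, in a range where members in general had a median log2 ratio of 0.47.

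Nucleotide, mitochondrial and glycolytic genes lay between these lists. In nucleotide and one-carbon metabolism 19 of 41 genes had a member site and the list's median was 0.55 on the log2 scale, led by the purine genes Adss, with 63 reads in POH1-Flag cells and 32 reads in vector cells, and Atic, with 57 reads in POH1-Flag cells and 31 reads in vector cells. Glycolysis and the pentose phosphate pathway had 13 of 31 genes and a median of 0.69, with Eno1 at 54 reads in POH1-Flag cells and 43 reads in vector cells and Pkm at 47 reads in POH1-Flag cells and 27 reads in vector cells. Oxidative phosphorylation had a member site at 11 of 54 genes (20.4%), near the 19% of all genes. Another 13 of its genes had a shared site at the ends of 2 or more genes. A POH1-Flag peak without a vector peak was at 19, and 11 had no POH1-Flag MYC peak. The member share is thus not the share with any MYC peak. The mitochondrial ribosome and import list had 15 of 56 genes with a median of 0.71. Another 17 of its genes had a shared site at the ends of 2 or more genes, and 15 a POH1-Flag peak without a vector peak. In that list Tomm70a, an import receptor gene, had 37 reads in POH1-Flag cells and 15 reads in vector cells.

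Chaperone genes had 21 of 40 with a member site (52.5%, against 19% of all genes) and a median log2 ratio of 0.67. Hspa9, the mitochondrial HSP70, had 63 reads in POH1-Flag cells and 45 reads in vector cells. Splicing genes had 21 of 60 and a median of 0.56, and Snrnp70 of the U1 particle had 48 reads in POH1-Flag cells and 28 reads in vector cells. Nuclear transport had 35 of 56 genes with a median of 0.57, or -0.01 over local background. Its exportin gene Xpot, for tRNA, had 67 reads in POH1-Flag cells and 59 reads in vector cells, while the pore gene Nup107 had 68 reads in POH1-Flag cells and 48 reads in vector cells.

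Genes known for E-boxes other than through MYC were also members. The circadian list, whose genes are driven by CLOCK and BMAL1 through CACGTG, had a member site at 14 of 23 genes (60.9%, against 19% of all genes). Its median was 0.63 on the log2 scale, and 4 of its 9 promoters with sequence carried the motif, against 12.97% of all member promoters. Nr1d2 had 68 reads in POH1-Flag cells and 41 reads in vector cells, and Ciart had 57 reads in POH1-Flag cells and 49 reads in vector cells. Autophagy and lysosome genes, known targets of the E-box factors TFEB and TFE3, had 27 of 61 with a median of 0.47, or -0.07 over local background, and CACGTG in 7 of 21 promoters. Ctsd, a lysosomal protease gene, had 37 reads in POH1-Flag cells and 20 reads in vector cells, and Wipi1 had 48 reads in POH1-Flag cells and 27 reads in vector cells.

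Among regulators, 33 of 69 chromatin genes had a member site (47.8%, against 19% of all genes), with a median log2 ratio of 0.50. They were led by the remodeller gene Smarca4 with 52 reads in POH1-Flag cells and 30 reads in vector cells. The p53 target list had 14 of 27 genes and a median of 0.66, led by Mdm2, the ubiquitin ligase of p53, with 58 reads in POH1-Flag cells and 28 reads in vector cells, and 0 of its 10 promoters with sequence carried CACGTG, a number too small to set against the 12.97% of all member promoters. The AP-1, YAP and mesenchymal list had 21 of 38 genes and a median of 0.54, with the chromatin protein gene Hmga1 at 48 reads in POH1-Flag cells and 46 reads in vector cells. Pancreatic cancer drivers had 10 of 30 genes with a median of 0.42, or -0.01 over local background. None of these 10 had a ratio as high as the members' median, and the leading one, Smad3 of the TGF-beta pathway, had 42 reads in POH1-Flag cells and 29 reads in vector cells.

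Marker genes of single cell types were almost without member sites. These were at 0 of 19 acinar, 0 of 15 fibroblast, 0 of 14 T cell and 0 of 15 neuronal markers, against 19% of all genes. A ductal marker, the secreted phosphoprotein gene Spp1, had 21 reads in POH1-Flag cells and 20 reads in vector cells, and was the only 1 of 17 in its list. The macrophage marker Cd14, 1 of 15 in its list, had 14 reads in POH1-Flag cells and 12 reads in vector cells. A MYC peak does not measure expression, so the labelled cell type was not checked by RNA.

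**Figure D5:**
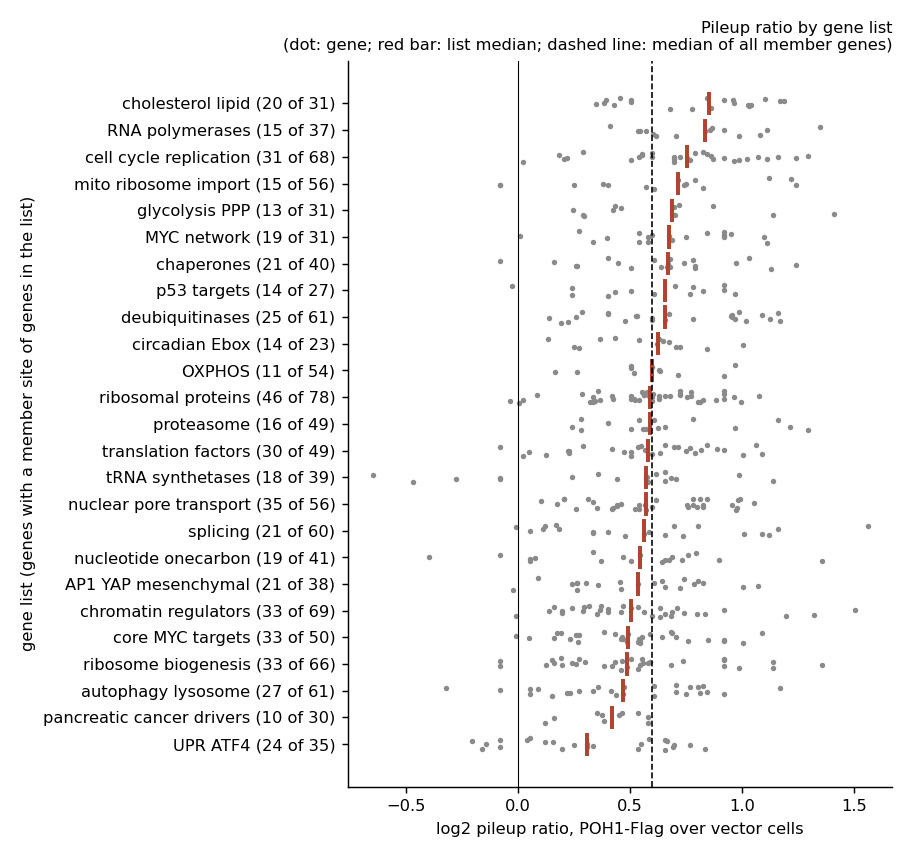
Log2 ratio of POH1-Flag over vector summit pileup (x axis) for each gene with a member site (grey dots) in each gene list (y axis, with the number of genes that have a member site of all in the list), with the list median as a red bar and the median of all member genes as a dashed line. Cholesterol and lipid genes have the highest median, 0.85, and unfolded protein response genes the lowest, 0.31; over local background the lists of core MYC targets, ribosomal proteins, nuclear transport, unfolded protein response, autophagy and cancer drivers have medians below 0.

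The limit of 1 kb cut through a continuous set of distances. Just inside it lay Bmpr2 (993 bp, 36 reads in POH1-Flag cells and 25 reads in vector cells), Slc38a7 (994 bp, 19 reads in POH1-Flag cells and 17 in vector cells), Bbs2 (996 bp, 25 reads in POH1-Flag cells and 18 in vector cells) and Eif4a1 (998 bp, 34 reads in POH1-Flag cells and 16 in vector cells). Just outside lay Isg20 (1002 bp, 27 reads in POH1-Flag cells and 20 in vector cells), Gapvd1 (1009 bp, 20 reads in POH1-Flag cells and 15 in vector cells), Jade2 (1016 bp, 20 reads in POH1-Flag cells and 20 in vector cells) and Pdcl (1016 bp, 31 reads in POH1-Flag cells and 19 in vector cells).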

How the data were processed

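Peak lists of 3 CUT&Tag libraries, 1 per group, were analysed. The submitters' processing notes list the tools MACS2 2.2.7.1, BWA 0.7.17-r1188, Trim Galore 0.6.6 and FastQC 0.11.9, with mm10 (GRCm38) as the genome build. Tool order, settings, any control library, duplicate handling and the total read number were not given in the sources. The authors deposited a separate list for each library, so peaks were called per sample. The deposited values per peak are a score, the authors' fold enrichment (a linear ratio at the summit), the authors' −log10 p-value and −log10 q-value, and positions in bp; the fold, p and q are each peak's own and were not compared between lists.

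Whole summit pileups and local backgrounds were solved from the deposited fold, which is the pileup plus 1 over the background plus 1, and the Poisson p (100% of peaks whole within 0.01 of a read). The genome-wide background per kb gave relative depths of 1.05 (Flag), 1.06 (MYC, POH1-Flag) and 1 (MYC, vector). The partner of a member was the overlapping vector peak with the highest pileup. Intervals are exact conditional Poisson for ratios and Wilson for shares, at 95%, and cover counting error only, since read duplicates cannot be seen. With 1 library per group no test of a difference was made. Motif searches used RefSeq promoters; windows around summits were planned but no genome was used here. Scripts used Python 3.11.15, numpy 2.4.6, pandas 2.3.3, scipy 1.17.1 and matplotlib 3.10.9, and in simulated data recovered 100% of pileups and a median log2 ratio of 0.59 where 0.6 was planted.

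Members, gene lists and tests were chosen with earlier results of these data known. Of 1279 list entries, 1271 matched by symbol and 4 by synonym. Leaving out predicted genes, the text names the 8 members with the highest pileup in POH1-Flag cells, the 8 highest and 8 lowest ratios among those with at least 15 vector reads, the 3 highest pileups of each list, the 4 sites on each side of 1 kb, and Myc, Max and Psmd14. A gene that the rule would name is not reported here. Sequences follow POH1-Flag pileup among genes with the summit within 500 bp of the start.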

Additional observations from a re-analysis of the deposited data

How the results depend on the processing

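No paired analysis was possible because each group has 1 library. The median log2 ratio over members, 0.59, was 0.60 with a limit of 500 bp, 0.54 and 0.46 with a −log10 q of at least 5 and 10, 0.57 with a fold of at least 5, 0.68 with raw pileups, 0.71 with the background in reads without the fragment length, and 0.0569 over local background. The share above 1 was 96.3% (fold of at least 5), 96.1% (raw), 97.8% (background in reads) and 57% (local background). Members numbered 2668 (q of 5), 902 (q of 10) and 2707 (fold of 5). The share at the gene start was 98.5% (500 bp), 96.4% (2 kb) and 98.4% (q of 10), and that of promoters with CACGTG 14.4% (q of 5) and 17.6% (q of 10). Over local background the sign turned for the medians of core MYC targets (-0.0060), ribosomal proteins (-0.0626), nuclear transport (-0.0084), the unfolded protein response (-0.1152), autophagy (-0.0680) and cancer drivers (-0.0111), and for 29 of 98 named genes. Of these, 3 had a counting interval that excluded a ratio of 1 after depth scaling: Kpnb1 (-0.0024), Nme2 (-0.0060) and Wipi1 (-0.0030). Max, whose interval held 1, was at -0.2534. With raw pileups or the background in reads, 2 of the 98 turned. Of 75 list medians under other scalings 46 stayed within the order-statistic interval of the median over the list's genes, 23 left it and 6 changed sign. Of 294 gene ratios 267 stayed within their counting interval, some of them with the other sign. The cause was not tested. Bins of pileup, position and CpG were added after seeing the data. Medians of 24 and 15 reads leave wide counting error at any single site.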
